A study of Mus musculus with 6 samples.

Results

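The 10 circadian clock genes Arntl, Clock, Per1, Per2, Per3, Cry1, Cry2, Nr1d1, Nr1d2 and Dbp were compared between Treg cells with and without miR-142. They were chosen by name as core components and the best known output gene of the mammalian clock. All 10 were among the 24421 genes counted, and all 10 passed the filter on low counts that left 11658 genes to test. Each RNA-seq library came from the CD4+YFP+ splenic Treg cells of 1 female C57BL/6 mouse aged 8 to 11 weeks. The WT group held 3 Foxp3Cre mice, in which the Foxp3 locus drives a YFP-Cre fusion protein. The KO group held 3 Foxp3Cre miR-142fl/fl mice, which carry the same Cre allele and lose miR-142 in Foxp3-expressing cells. KO mice develop systemic autoimmune disease, so their Treg cells came from a diseased host. The hour of collection is not given in the sources used here, and its part in the values of these rhythmic genes was not tested.

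The mammalian clock is a feedback loop of transcription. Arntl (BMAL1) and Clock form an activator that binds E-boxes and switches on Per, Cry, Nr1d and Dbp genes. The PER and CRY proteins return to the nucleus and block that activator, while the REV-ERB proteins made by Nr1d1 and Nr1d2 repress Arntl through REV-ERB/ROR elements (RREs). The clock runs in most cells, T cells included. Arntl peaks roughly opposite in phase to Per, Nr1d1 and Dbp, and rhythms in different tissues are set by cues such as glucocorticoids. A library from 1 time point gives a level, not a rhythm.

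The miRNA lost in KO cells and its matches in the clock genes were read first. miR-142-3p is one of the most abundant miRNAs of blood cells, and Arntl has been described elsewhere as its target. A miRNA recognizes mainly transcripts whose 3′ untranslated region (3′ UTR) matches its seed, bases 2 to 8. The mature sequences are from RefSeq, with the seed in capitals. Both arms come from chr11:87756867-87756925 on the plus strand of GRCm38, and the shifted 3p form, which starts 1 base later, has another seed.
miR-142a-3p: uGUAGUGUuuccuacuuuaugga
miR-142a-3p, shifted form: gUAGUGUUuccuacuuuaugga
miR-142a-5p: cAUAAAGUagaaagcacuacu

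The searched sites were ACACTAC or CACTACA for the 3p seed, AACACTA or ACACTAA for the shifted 3p seed, and ACTTTAT or CTTTATA for the 5p seed, on the transcript strand, in the longest annotated 3′ UTR of each gene. Overlapping matches of the same seed form an 8-mer, which was counted once. Of the members, 2 held a 3p site, 3 held a 5p site and 6 held neither. The 507-base 3′ UTR of Arntl, in exon 21, held an 8-mer at its first base, directly after the stop codon, and another at base 350. The 6831-base 3′ UTR of Clock, in exon 23, held 1 8-mer at base 4551, a 7-mer at base 5258 and a shifted-form site at base 4075. The Arntl sites and the Clock 8-mer are printed with their surroundings and the match in capitals, since these members pair best with the deleted miRNA. The only match in Per2, the member with the lowest unadjusted p, is printed beside them.
Arntl, first site, chr7:113313620-113313638, plus strand: ACACTACAtttgctttggc
Arntl, other site, chr7:113313958-113313987, plus strand: atggtgtttttACACTACAaagaagtcccc
Clock, 8-mer, chr5:76212130-76212159, minus strand: gttgtcataccACACTACAttccttggttt
Per2, 5p site, chr1:91416775-91416803, minus strand: agctctacaaaACTTTATgctgcatcaga

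A 3p match in Arntl was less common for its length than the matches in Clock. Of 1123 tested genes whose 3′ UTR was 0.8 to 1.25 times as long as that of Arntl, 10.2% held a 3p site of either form. For Clock the share was 68.4% of 275 genes. Nr1d2, whose 3′ UTR has 2631 bases, held 3 5p sites and no 3p site. Per1, Per3, Cry1, Cry2, Nr1d1 and Dbp held no match of any form in 3′ UTRs of 288 to 2224 bases. A match is a description of the letters and was not tested for binding.

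The level of the targeted locus followed the labels. Levels are given in CPM, the count of a gene in every 1000000 counts of the TMM-scaled library. Mir142b, the annotated gene on the strand opposite the miR-142 hairpin, had 9.05, 4.14 and 5.81 CPM in WT libraries and 0.389, 0.379 and 0.342 in KO libraries. It was lower in KO cells by 4.07 on the log2 scale (log2 difference -4.07, SE 0.39, FDR 0.00132 by the edgeR QLF test). The gene entry Mir142 had 0 counts in all 6 libraries, so it does not check the labels. Total counts per library lay between 13883069 and 24042994. The Treg genes Foxp3, Il2ra, Ctla4, Ikzf2, Cd3e and Cd4 were expressed in all 6 libraries. Foxp3 was at 566 ± 29.5 CPM in WT and 689 ± 54.9 CPM in KO cells (SD, n = 3), with all KO libraries above all WT libraries but no call (edgeR FDR 0.083). Il2ra, the IL-2 receptor alpha chain, was called higher in KO cells, with a log2 difference of 1.77 (edgeR FDR 0.00088). Cd4, at 1021 ± 19.55 against 876 ± 47.2 CPM, and Cd3e, at 679 ± 53.4 against 593 ± 2.59 CPM, had all KO libraries below all WT libraries and were not called.

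KO replicate 1 stood apart in genes of other cell types. Its neutrophil list summed to 825 CPM over 9 of 10 listed genes, against 0.277 to 40.5 CPM in the other 5 libraries, and 8 of the 9 were highest there. S100a8, Retnlg and Cxcr2 of that list were at 0 in all WT libraries. The monocyte and macrophage list summed to 2348 CPM against 2.96 to 39.8 CPM, with 10 of 10 genes highest in KO replicate 1 and Fcgr1 at 0 in all WT libraries. The same library held 194 CPM of 6 B cell genes against 7.72 to 21.3 CPM elsewhere, with 6 of 6 highest there. The 6 CD8 and NK cell genes summed to 78.4 CPM against 20.3 to 55.8 CPM, with 4 highest there and Ncr1 at 0 in all WT libraries. The 6 erythroid genes summed to 11.99 CPM against 0.774 to 1.82 CPM, with 2 of 6 highest there. The 4 globin genes of that list were at 0 in the other 5 libraries, and not all of them had counts in KO replicate 1. None of the 10 clock genes was highest in KO replicate 1, where 3 were lowest of all 6 libraries. The part of these other cells in the values below was not tested. No clock gene was called with or without KO replicate 1. Without that library, Dbp and Nr1d2 had an unadjusted p under 0.05 in the edgeR QLF test, in place of Per2. In bulk samples fewer cells of a type and less RNA per cell cannot be told apart.

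None of the 10 clock genes changed between KO and WT Treg cells at a false discovery rate (FDR) of 0.05 in the edgeR QLF test. Of all 11658 genes tested, 18.8% were called, 11.6% higher and 7.27% lower in KO cells. At an unadjusted p under 0.05 1 of the 10 was found, Per2, beside 4060 of all 11658 genes tested. DESeq2 also called 0, beside 2863 of all 11658, with 1 of the 10 at that unadjusted level. The log2 differences, KO over WT, ran from -0.51 for Per1 to 0.37 for Nr1d2, with a median of 0.07 beside 0.02 over all genes tested. In 8 of the 10 the KO and WT libraries overlapped. The exceptions were Arntl, with all KO libraries above all WT libraries, and Per2, with all KO libraries below. Such separation in either direction was found for 41.0% of all genes tested. The p-values measure the spread between these mice, and the precision they allow differed by gene, with standard errors from 0.0924 for Arntl to 0.495 for Per1.

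**Figure D1:**
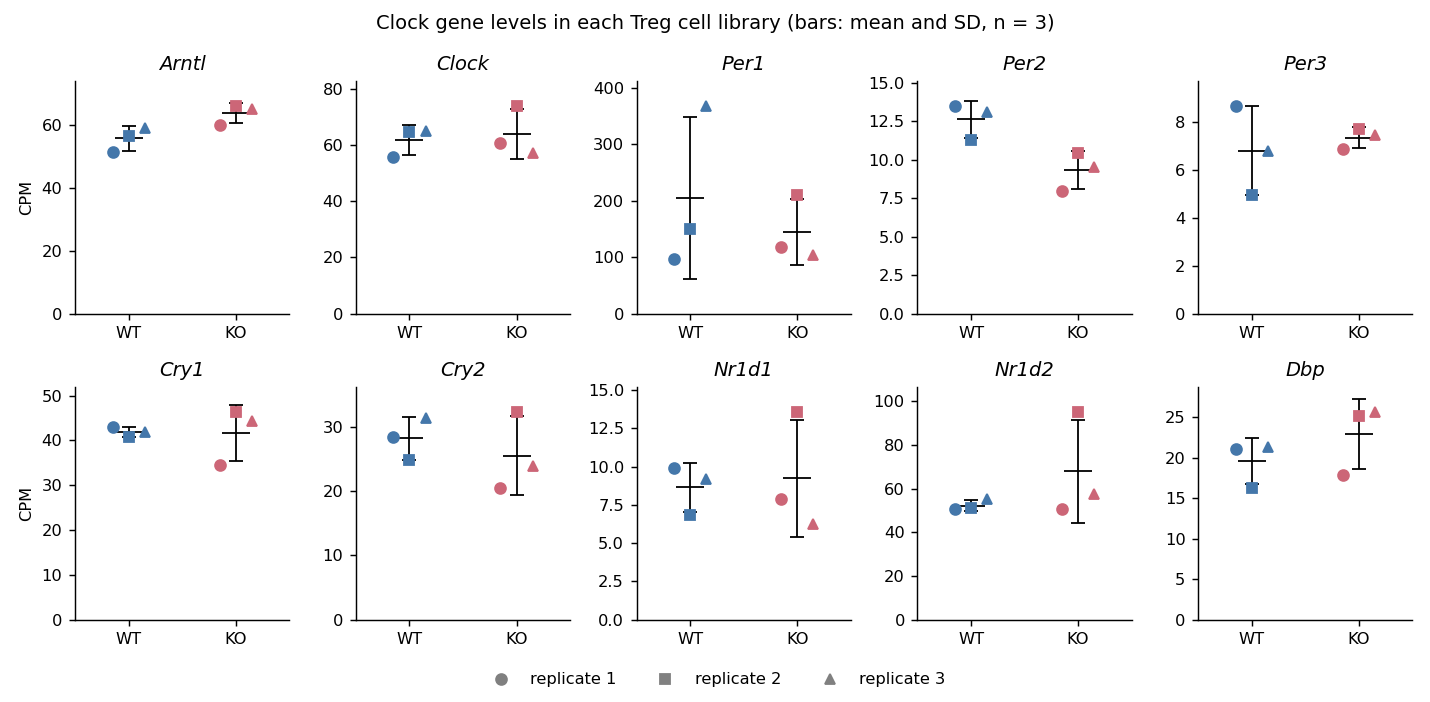
Normalized level of each of the 10 clock genes in CPM on linear axes from 0, with 1 point per library shaped by replicate and bars for the mean and SD of the 3 WT and 3 KO libraries. The groups overlap in 8 genes, Arntl lies slightly higher and Per2 lower in KO libraries, and Per1 spreads from 96.6 to 367.8 CPM within the WT group.

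Of the activators, Arntl, which encodes BMAL1, had 51.4, 56.7 and 59.3 CPM in WT and 60.2, 66.2 and 65.3 CPM in KO libraries. All KO libraries were above all WT libraries, the lowest KO library lying just over the highest WT library. The mean was 55.8 ± 4.05 CPM in WT and 63.9 ± 3.21 CPM in KO cells (SD, n = 3). The log2 difference of 0.19 (SE 0.0924, edgeR FDR 0.182) corresponds to a 1.14-fold higher level, with a 95% interval of 0.985 to 1.33. An exact two-sided permutation test gave p = 0.1, the smallest that 3 against 3 mice allow. Leaving out any library kept the Arntl difference between 0.11 and 0.24. The 1.33-fold upper bound is the largest increase of the transcript these libraries allow at that confidence level. Arntl lies at chr7:113207465-113314126 on the plus strand.

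Clock, whose protein pairs with BMAL1, had 55.9, 64.5 and 65.1 CPM in WT and 60.9, 74.0 and 57.1 CPM in KO libraries. The groups overlapped, and every KO library but replicate 2 lay within the WT range. Its log2 difference was 0.05 (SE 0.123, edgeR FDR 0.806), with a 95% interval in fold of 0.848 to 1.26. The sign of the Clock difference was not stable, being -0.029 when counts were scaled by library size alone. Clock lies at chr5:76209868-76304792 on the minus strand.

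The 3p site classes give the scale on which Arntl and Clock can be read. Among 10760 tested genes with an annotated 3′ UTR, the 2447 with a 3p site of either form had a median log2 difference of 0.12, and the test called 19.7% of them higher and 5.60% lower in KO cells. The 6732 genes with no site of either arm stood at 0.0030 in the median, where 9.42% rose and 7.56% fell. Arntl was 1 of 66 genes with at least 2 8-mer 3p sites, of which 22 were called higher and 3 lower. Their median log2 difference was 0.31, with quartiles at -0.05 and 0.96, and Arntl ranked 37 of 66 from the highest. Arntl, which was not called, therefore lay near the middle of its site class but below the median. It ranked 382 of the 742 genes with at least 1 8-mer, again just below their median of 0.20. Clock lay below the median of all genes with a 3p site.

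**Figure D2:**
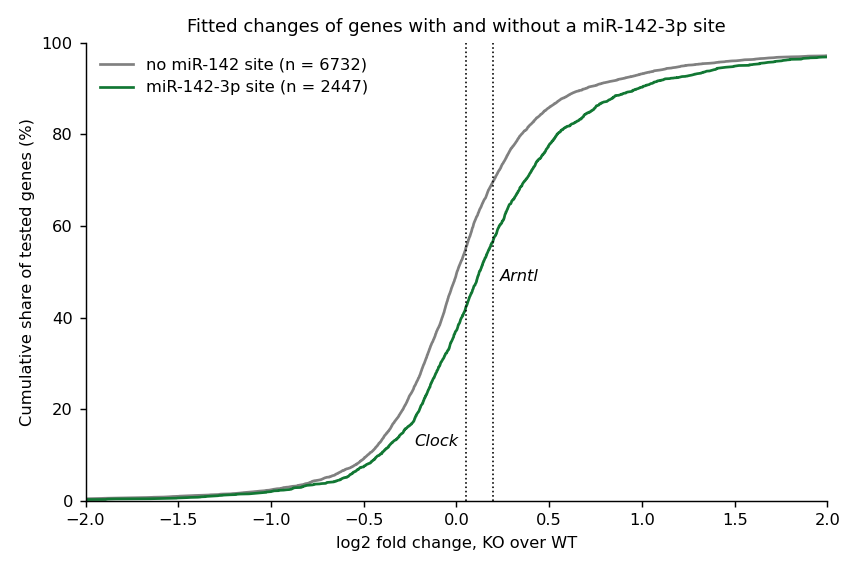
Cumulative share of tested genes (percent) against their log2 difference, KO over WT, for 6732 genes without a miR-142 site and 2447 with a 3p site, with dotted lines at Arntl and Clock. The curve of genes with a 3p site lies to the right, with a median of 0.12 against 0.0030, and Arntl at 0.19 and Clock at 0.05 lie on either side of its median.

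Of the repressors, Per2 had the lowest p among the members. It had 13.5, 11.3 and 13.1 CPM in WT and 7.99, 10.4 and 9.51 CPM in KO libraries, from raw counts of 219, 275 and 237 in WT and 144, 138 and 139 in KO libraries. All KO libraries were below all WT libraries, the gap between the nearest pair, WT replicate 2 and KO replicate 2, being smaller than the spread within either group. The mean was 12.6 ± 1.185 CPM in WT and 9.32 ± 1.24 CPM in KO cells (SD, n = 3). The log2 difference was -0.44 (SE 0.167, unadjusted p = 0.0331, edgeR FDR 0.109), a fitted level 26.2% lower in KO cells, with a 95% interval in fold of 0.562 to 0.968. Since that interval was not adjusted for the 11658 genes tested and the FDR missed the threshold, Per2 was not called. The value ran from -0.52 to -0.35 when each library was left out in turn. The lowest FDR reached for any member in any alternative was 0.0732, for Per2 without KO replicate 2. Per2 lies at chr1:91415982-91459324 on the minus strand.

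Per1, the member that responds fastest to hormones and other acute signals, varied most between mice. It had 96.6, 149 and 368 CPM in WT and 118, 211 and 103 CPM in KO libraries. WT replicate 3 was the highest of the 6 and WT replicate 1 the lowest, so the KO libraries lay inside the WT range. The highest WT library exceeded the lowest 3.81-fold, and the corresponding value in KO libraries was 2.05-fold. The within-group SD of Per1 was 0.79 on the log2 scale, where counting alone would give 0.0261. That spread ranked 289 among the 11658 genes, within the top 2.48%. The log2 difference of -0.51 (SE 0.495, edgeR FDR 0.51) turned to 0.22 without WT replicate 3. No direction can be given for Per1, which lies at chr11:69095217-69109960 on the plus strand.

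Per3, the least abundant member, had 8.68, 4.96 and 6.80 CPM in WT and 6.88, 7.72 and 7.46 CPM in KO libraries, with a log2 difference of 0.11 (SE 0.235, edgeR FDR 0.766). The KO libraries lay within the wider WT range. Per3 lies at chr4:151003652-151044665 on the minus strand.

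Cry1, whose product is the strongest repressor of the BMAL1 and CLOCK pair, had 42.9, 40.8 and 41.9 CPM in WT libraries. The KO libraries had 34.6, 46.3 and 44.3 CPM and lay on both sides of the WT libraries. The means were 41.9 ± 1.07 and 41.7 ± 6.24 CPM (SD, n = 3), the log2 difference was -0.0055 (SE 0.125, edgeR FDR 0.981), and its 95% interval ran from -0.30 to 0.29. Cry1 lies at chr10:85131700-85185064 on the minus strand. Cry2, its paralog, had 28.3, 24.8 and 31.4 CPM in WT and 20.4, 32.3 and 23.8 CPM in KO libraries. The groups overlapped, with KO replicate 2 the highest of all 6 and the other KO libraries below the WT libraries. The log2 difference of Cry2 was -0.14 (SE 0.186, edgeR FDR 0.623), and the gene lies at chr2:92403646-92434043 on the minus strand.

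Nr1d1, which encodes REV-ERBα, had 9.92, 6.85 and 9.18 CPM in WT and 7.88, 13.6 and 6.23 CPM in KO libraries. KO libraries included both the highest and the lowest of the 6. The log2 difference was 0.09 (SE 0.311, edgeR FDR 0.859), and it turned to -0.28 without KO replicate 2. Nr1d2, which encodes REV-ERBβ, had 50.6, 51.2 and 55.2 CPM in WT and 50.95, 95.1 and 57.7 CPM in KO libraries. KO replicate 2 was far above the other 5, which lay close together. The log2 difference of Nr1d2 was 0.37 (SE 0.223, edgeR FDR 0.275), falling to 0.06 without KO replicate 2 and reaching 0.53 without KO replicate 1. Nr1d1 lies at chr11:98767932-98775333 and Nr1d2 at chr14:18204054-18239127, both on the minus strand.

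Dbp, a PAR bZIP transcription factor and a direct output of the E-box activator, had 21.1, 16.2 and 21.4 CPM in WT and 17.9, 25.1 and 25.6 CPM in KO libraries. KO replicates 2 and 3 were above all WT libraries and KO replicate 1 was inside their range. The log2 difference was 0.22 (SE 0.183, edgeR FDR 0.426), and the gene lies at chr7:45705088-45710203 on the plus strand.

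**Figure D3:**
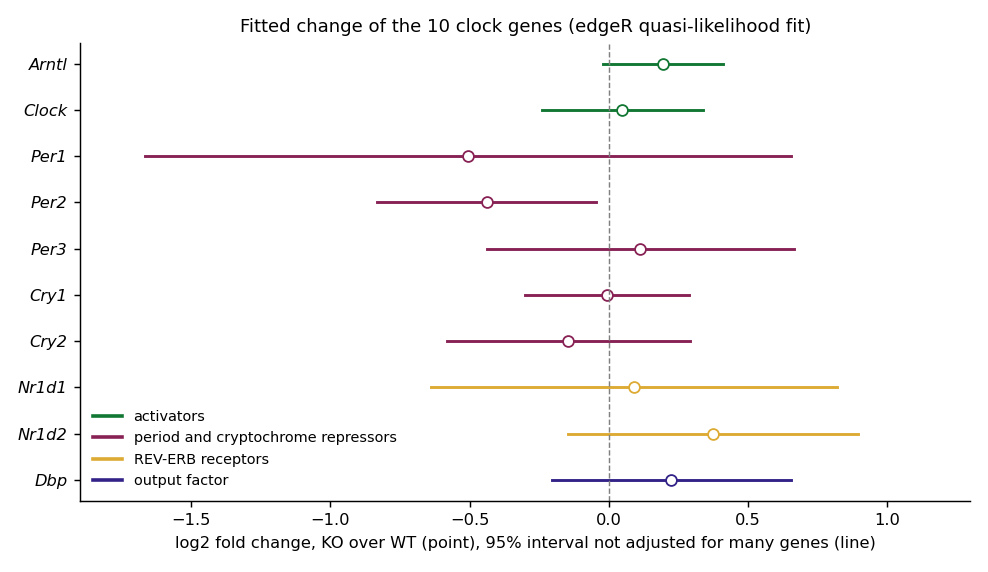
Fitted log2 difference, KO over WT, of each clock gene with its 95% interval, grouped by role in the loop, with the zero line marked. The interval of Per2 lies below 0 without adjustment, from -0.83 to -0.05, all other intervals include 0, and that of Per1 is the widest, from -1.67 to 0.65.

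Some members share annotated exon bases with a gene on the opposite strand, and reads were counted without regard to strand. Dbp shared 539 of its exon bases, 18%, with Sphk2, which encodes a sphingosine kinase. Sphk2 was called lower in KO cells, at 55.8 ± 1.75 CPM in WT and 44.6 ± 2.56 CPM in KO cells (SD, n = 3), with a log2 difference of -0.32 (SE 0.0873, edgeR FDR 0.0419). Its direction was opposite to that of the Dbp difference. Nr1d1 shared 263 bases, 8.55%, with Thra, the thyroid hormone receptor gene, whose log2 difference was -0.28 (edgeR FDR 0.49). Cry2 shared 4.67% of its exon bases with D930015M05Rik, and Arntl 0.439% with Gm45355. Reads from these stretches cannot be assigned to either strand.

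Per kilobase of exon, the members covered a wide range of levels, and their order was similar in both groups. The length was that of all annotated exons of a gene together. Which of them Treg cells use was not tested, so the order between genes depends on that length. In WT cells Per1 was the highest at 36.3 ± 25.5 CPM per kb, followed by Cry1 at 12.5 ± 0.321, Nr1d2 at 9.67 ± 0.466 and Arntl at 7.42 ± 0.538 CPM per kb (SD, n = 3). Dbp at 6.53 ± 0.961, Clock at 4.50 ± 0.377 and Cry2 at 4.46 ± 0.520 CPM per kb came next. Nr1d1 at 2.81 ± 0.521, Per2 at 2.16 ± 0.202 and Per3 at 0.709 ± 0.194 CPM per kb were the lowest. The WT libraries of Arntl and Dbp overlapped, as did those of Clock and Cry2 and those of Nr1d1 and Per2, so the order within those pairs is not resolved. In KO cells the order was the same except that Nr1d2, at 12.6 ± 4.4 CPM per kb, and Cry1, at 12.5 ± 1.87 CPM per kb, overlapped and changed places. In KO libraries Per2, at 1.59 ± 0.212 CPM per kb, no longer overlapped Nr1d1, whose mean was 3.00 CPM per kb, while Nr1d1 overlapped Cry2.

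Within the KO group most members were highest in the same library. KO replicate 2 was the highest of the 3 KO libraries for 9 of the 10 clock genes, the exception being Dbp, and KO replicate 1 was the lowest for 7. Over all genes tested, KO replicate 2 was the highest of its group for 37.1% and KO replicate 1 the lowest for 33.4%. In the WT group, WT replicate 3 was the highest for 6 members and the lowest for 0, beside 29.1% and 34.5% over all genes. WT replicate 2 was the lowest for 6, beside 33.0% over all genes. The members highest in KO replicate 2 included both activators, all repressors and both REV-ERB genes. Scaled by library size alone, without TMM factors, KO replicate 2 was the highest of its group for 7 members, beside 32.5% of all genes tested. KO replicate 2 was also the shallowest library, at 13883069 counts, and the hour at which each mouse was sampled is not given in the sources used here; the part of either was not tested.

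**Figure D4:**
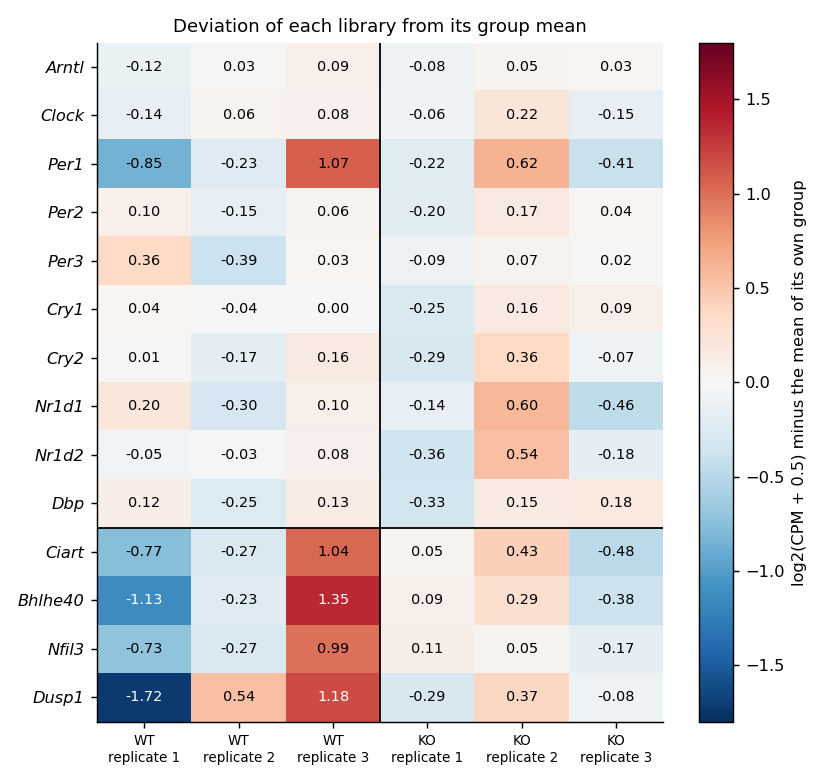
Deviation of each clock gene from its own group mean, in log2 units, in each of the 6 libraries, on log2 of CPM plus 0.5, with Ciart, Bhlhe40, Nfil3 and Dusp1 in the rows under the line. In KO replicate 2 9 of 10 members are the highest of their group, KO replicate 1 holds 7 of the lowest, and Per1 has the widest deviations among the members, from -0.85 to 1.07 in WT libraries.

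The genes whose 6-library profile lay closest to that of Arntl were 2700029M09Rik, Cul5 and 9030025P20Rik. Closeness was the root mean square difference of log2 CPM values after each gene was centred on its mean over the 6 libraries. The distances were 0.031, 0.038 and 0.041, in that order. The level of 9030025P20Rik was only 1.11 to 1.51 CPM, just over the filter, so its closeness rests on few counts. The other 2 were at 28.7 to 37.3 CPM for 2700029M09Rik and 72.6 to 97.0 CPM for Cul5. None of the 3 was called, with log2 differences of 0.19 (edgeR FDR 0.241), 0.26 (FDR 0.0715) and 0.21 (FDR 0.592).

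The promoters were read for the motifs through which the loop acts on its own genes. RefSeq windows of 250 bases before to 50 after the annotated start on GRCm38.p6 were found for 9 of the 10 members, in 13 windows. The motifs, searched on both strands, were the E-box CACGTG, the related CACGTT, the D-box TTATGTAA bound by DBP, TEF, HLF and NFIL3, and the RRE. The E-box was in windows of Per1 and Cry1, CACGTT in windows of Cry1, Cry2 and Nr1d1, a pair of D-boxes in a window of Per3, and an RRE in a window of Arntl. The share of all 32851 windows with each motif was 7.15% for the E-box, 4.68% for CACGTT, 0.938% for the D-box and 0.435% for the RRE. The windows of Clock, Nr1d2 and Dbp held none of these letters. One stretch is printed for each motif and for each gene holding the E-box, with the motif in capitals on the gene's strand. These are matches of letters, and binding to them was not tested.
Per1, E-box, chr11:69098771-69098800, plus strand: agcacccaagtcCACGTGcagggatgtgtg
Cry1, E-box, chr10:85185097-85185126, minus strand: ggtgccggtggtCACGTGgggtgcatgccg
Nr1d1, CACGTT on the other strand: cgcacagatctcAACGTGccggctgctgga
Per3, D-box: ccgacccgcgcgTTATGTAAggtactcggg
Arntl, RRE, chr7:113207526-113207555, plus strand: agggaaggcagaAAGTAGGTCAgggacgga

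Per1 and Cry1, which hold the printed E-box, differed in their spread, with WT values of 204 ± 143.8 CPM for Per1 and 41.9 ± 1.07 CPM for Cry1 (SD, n = 3). No member was called, so calls cannot compare members with and without a motif, and Per2 had no window to read.

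Beyond the core loop, a list of 25 other clock genes held 21 that could be tested, and none was called higher or lower by the edgeR QLF test. At an unadjusted p under 0.05 4 of the 21 were found, namely Nampt, Tef, Csnk1e and Prkaa1, beside 4060 of all 11658 genes tested. DESeq2 called 2 of the 21, Nampt and Tef, beside 2863 of all 11658. The median log2 difference of the list was 0.15. Separation of all KO from all WT libraries was found for 7 of the 21, beside 41.0% of all genes, of which Csnk1e, Fbxw11, Nampt and Wee1 were higher and Csnk1d, Prkaa1 and Timeless lower in KO libraries. Arntl2, Rorb, Bhlhe41 and Prkaa2 were below the filter.

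Nampt, the rate-limiting enzyme of NAD salvage and a known E-box output, had 78.5, 78.4 and 93.6 CPM in WT and 193, 101 and 127 CPM in KO libraries. All KO libraries were above all WT libraries, and KO replicate 1, which held the myeloid genes, was the highest. The log2 difference was 0.75 (SE 0.228, edgeR FDR 0.0598), and the part of the other cells in it was not tested. Tef, a PAR bZIP factor related to Dbp, had 68.1, 50.9 and 59.7 CPM in WT and 67.7, 117 and 82.7 CPM in KO libraries, with a log2 difference of 0.58 (SE 0.208, edgeR FDR 0.093). KO replicate 2 was again the highest, as it was for Nr1d2. Csnk1e, a kinase that marks PER proteins for degradation, had a log2 difference of 0.31 (SE 0.109, edgeR FDR 0.0883). Prkaa1, a catalytic subunit of AMPK, the kinase that destabilizes CRY1, had -0.25 (SE 0.0974, edgeR FDR 0.114).

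Several genes of this list shared the wide WT spread of Per1. Bhlhe40, a repressor that competes at E-boxes, had 88.6, 165 and 497 CPM in WT and 332, 382 and 239 CPM in KO libraries. Ciart, a repressor of the BMAL1 and CLOCK pair, had 3.39, 5.001 and 13.1 CPM in WT and 7.94, 10.4 and 5.34 CPM in KO libraries. Nfil3, which opposes DBP at D-boxes, had 24.4, 33.7 and 81.6 CPM in WT and 39.9, 38.2 and 32.8 CPM in KO libraries. In all 3, as in Per1, WT replicate 1 was the lowest and WT replicate 3 the highest of the WT group, and none was called. These 3 and the other genes of the list given with values were singled out after their values were seen. The order was not confined to clock genes. The Treg gene Ctla4, also singled out afterwards, had 315, 629 and 1158 CPM in WT and 842, 1103 and 673 CPM in KO libraries. Its within-group spread ranked 378 among all genes tested, beside 289 for Per1. Rora, the activator that competes with the REV-ERBs at the RRE, had 126, 144 and 162 CPM in WT and 133, 199 and 135 CPM in KO libraries, with a log2 difference of 0.11 (SE 0.177, edgeR FDR 0.70).

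**Figure D5:**
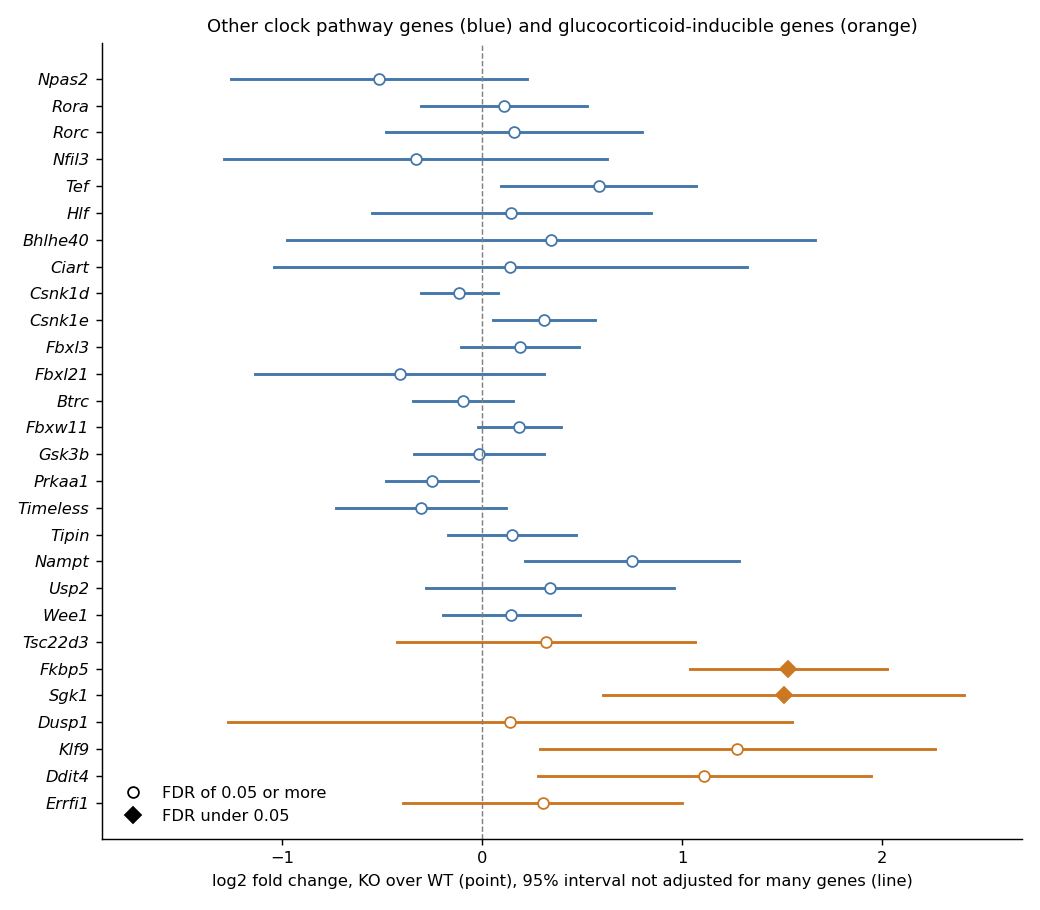
Fitted log2 differences, KO over WT, with 95% intervals for the tested genes of the wider clock list and of the glucocorticoid-inducible list, with called genes drawn as filled diamonds. No clock gene is called, whereas Fkbp5 at 1.53 and Sgk1 at 1.51 are called higher.

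Glucocorticoids set peripheral clocks and induce Per1, so 8 genes known to be induced by them were read beside the clock genes. Of the 7 that could be tested, 2 rose in KO cells, 0 fell and 5 were not called, beside 11.6% of all genes called higher and 7.27% lower. All 7 had a log2 difference above 0, with a median of 1.11, beside 6037 of the 11658 genes tested and a median of 0.02. Fkbp5, a co-chaperone of the glucocorticoid receptor, had 121, 109 and 114 CPM in WT and 247, 299 and 448 CPM in KO libraries. It rose by 1.53 on the log2 scale (SE 0.21, edgeR FDR 0.00443) and was called in all 15 alternatives. Sgk1, a kinase of salt and T cell regulation, had 20.1, 39.7 and 64.5 CPM in WT and 148, 102 and 103 CPM in KO libraries. It rose by 1.51 (SE 0.384, edgeR FDR 0.0353), with no overlap between groups, but the call was lost with robust estimation and without WT replicate 1, WT replicate 2 or KO replicate 3. Sgk1 was highest in KO replicate 1, the library with the myeloid and B cell genes, and remained called without that library.

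The other tested genes of the list, described after their values were seen, were not called in the main test. Of these, Errfi1 had a log2 difference of 0.30 (SE 0.298, edgeR FDR 0.516) and Dusp1 of 0.14 (SE 0.601, edgeR FDR 0.891), both with overlapping groups. Klf9, a clock-linked transcription factor, had 9.12, 9.10 and 19.7 CPM in WT and 19.6, 47.5 and 24.8 CPM in KO libraries, with a log2 difference of 1.28 (SE 0.421, edgeR FDR 0.0748). Its groups overlapped, since KO replicate 1 lay just below WT replicate 3. Klf9 was called higher with DESeq2, with the likelihood ratio and exact tests, and without KO replicate 1. Ddit4, an inhibitor of mTORC1, had 186, 94.1 and 67.9 CPM in WT and 307, 238 and 205 CPM in KO libraries, with a log2 difference of 1.11 (SE 0.356, edgeR FDR 0.0691). All KO libraries lay above all WT libraries for Ddit4, which was called higher with the likelihood ratio and exact tests, a replicate block, and without WT replicate 1. Tsc22d3 (GILZ), the most widely used marker of glucocorticoid action, had 210, 291 and 291 CPM in WT and 239, 516.5 and 233 CPM in KO libraries. Its groups overlapped, with a log2 difference of 0.32 (edgeR FDR 0.521), and KO replicate 2 stood above the rest as it did for Nr1d2 and Tef. Per1, the clock gene of this class, had a log2 difference of the opposite sign that turned without 1 library.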

How the data were processed

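RNA was extracted with the miRNeasy kit, libraries were made with the TruSeq RNA kit v2 and 51-base single-end reads were sequenced on an Illumina HiSeq instrument. The authors aligned reads with HISAT to mm10 and counted them with featureCounts regardless of strand, and the deposited values are raw counts per gene. The submitters' processing notes also name CASAVA and edgeR. Tool versions and the annotation are not given in the sources used here. The filter kept genes over 1 CPM in 3 or more libraries, and the test was that of edgeR 4.0.16 under R 4.3.3 (TMM, QLF, Benjamini-Hochberg FDR under 0.05 over all genes tested). The common biological coefficient of variation was 0.212. CPM levels are counts divided by TMM-scaled library size, and 3 counts corresponded to 0.123 to 0.227 CPM. Permutation tests used log2 of CPM plus 0.5. Positions, exon lengths and 3′ UTRs are those of GENCODE vM21 on GRCm38 (mm10), and miRNAs and promoters those of RefSeq on GRCm38.p6. Alternatives included DESeq2 1.42.0 and other scalings, tests, filters, a replicate block and leaving out each library. The script was tested on simulated data. The rule for named genes took all 10 members, genes whose exons overlap them, called or untested genes of the wider clock and glucocorticoid lists, the 3 profiles nearest to Arntl and the targeted locus. Other genes of those lists were named after their values were seen. The members and lists were chosen with earlier results of these data known.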

Additional observations from a re-analysis of the deposited data

How the results depend on the processing

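Over 15 alternatives for each of the 10 clock genes, 0 were called under any, and 142 of the 150 values kept their direction. The other 8 reversed. Clock was -0.029 with library size alone, and its range when each library was left out was -0.060 to 0.11 (below 0 without WT replicate 1 and without KO replicate 2). The same range was -0.88 to 0.22 for Per1 (above 0 without WT replicate 3), -0.077 to 0.30 for Per3 (below 0 without WT replicate 2), -0.081 to 0.10 for Cry1 (above 0 without KO replicate 1) and -0.28 to 0.29 for Nr1d1 (below 0 without WT replicate 2 and without KO replicate 2). The wider clock list, with 0 calls, gave 2 higher with DESeq2 and 1 with the likelihood ratio and exact tests, 1 lower (Prkaa1) with library size alone, and 0 to 1 higher when each library was left out (Tef without KO replicate 1, Nampt without KO replicate 2). The glucocorticoid-inducible list, with 2 called higher, gave 1 at an FDR under 0.01 and with robust estimation, 4 with the likelihood ratio and exact tests, and 1 to 3 when each library was left out, with 1 without WT replicate 2 or KO replicate 3 and 3 without KO replicate 1. Over all genes, library size alone moved the median log2 difference from 0.02 to -0.06 and the calls from 1350 higher and 847 lower to 1064 and 1201, and leaving out WT replicate 2 gave 691 calls in place of 2197. The labels do not say whether equal replicate numbers pair the mice. The values showed no pairing (correlations of deviations 0.0804, -0.0056 and -0.195, not every library closest to its own number). With 3 libraries per group they cannot exclude it. With a replicate block 1606 genes were called, 0 of them clock members.

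With 3 mice per group and no recorded hour of collection, a change in phase or amplitude cannot be read from these libraries. The spread between mice was widest for Per1. The cause of the reversals was not tested.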

Other observations

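The 6 immediate-early genes Fos, Fosb, Jun, Egr1, Nr4a1 and Ier2, chosen after other values were seen, were lowest of the WT group in WT replicate 1, as were Per1, Bhlhe40, Ciart and Nfil3. WT replicate 3 was the highest of its group for Jun, Egr1, Nr4a1 and Ier2, as for Per1, while Fos and Fosb were highest in WT replicate 2. Nr4a1, an orphan nuclear receptor induced soon after T cell receptor engagement, had 149, 275 and 1019 CPM in WT and 240, 442 and 240.5 CPM in KO libraries. Fos, a subunit of AP-1, had 54.3, 1061 and 550 CPM in WT and 523, 827 and 1083 CPM in KO libraries. Dusp1, a phosphatase induced by stress and glucocorticoids, had 140, 673 and 1046 CPM in WT and 549, 867 and 634 CPM in KO libraries. For Nr4a1, Dusp1, Per1 and Ctla4 alike, WT replicate 1 was the lowest and WT replicate 3 the highest of all 6 libraries.

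Bhlhe41, a paralog of Bhlhe40 that fell below the filter, had 2, 7 and 12 counts in WT and 84, 14 and 13 counts in KO libraries. The library with 84 counts was KO replicate 1, which also held the myeloid and B cell genes. Zbtb16, of the glucocorticoid-inducible list, had 30 counts in the same library and 0 to 4 counts in the others.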
